A study of Rattus norvegicus with 25 samples.

Results

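The genes described here are 9 genes of the red cell lineage, Ahsp, Slc4a1, Car1, Alas2, Klf1, Epb42, Rhag, Ermap and Tfrc. They were chosen by symbol as a measure of blood-forming marrow in tissue taken from rat molars, with earlier results of these data known. Of the 9, 8 were among the 16881 gene symbols of the count files, and Ermap was absent. The study took out upper first molars of Sprague-Dawley rats, left them dry for 5 min (immediate replantation, IR) or 60 min (delayed replantation, DR) and put them back. Tooth and periodontal ligament, the fibrous tissue that anchors a tooth in its socket, were collected at day 3 or day 7. Each of the 4 replanted groups (IR day 3, DR day 3, IR day 7, DR day 7) held 6 libraries. A single library, NT, came from a sample labelled as control. All 25 libraries carry the age postnatal day 21, without saying whether this is the day of replantation or of collection, so NT can differ from the others in age. Separate animals are not named for the replicates, and p-values therefore measure only how these libraries vary.

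Red cells form in the bone marrow from erythroblasts, which switch on globin genes, make heme, load iron and then expel their nucleus. The transcription factor GATA1 binds the bases AGATAA and TGATAA in many of their genes, and KLF1, a later factor of the same cells, drives globins, membrane and heme genes. Mature red cells still hold globin transcripts for a while, whereas factors such as KLF1 mark nucleated precursors. The jaw bone around a molar contains marrow spaces, and a healing socket contains clotted blood.

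RefSeq windows of the 250 bases before the gene start, on the rat build GRCr8, were at hand for 6 of the 9 genes (Alas2, Klf1, Epb42, Rhag, Ermap and Tfrc). They were searched on both strands for AGATAA and TGATAA, the letters bound by GATA factors, and for CCACACCC, a form of the letters bound by KLF1. Shown are the windows of 3 genes that were lower in every replanted library than in NT, all with a match, and of Tfrc, which was not. The members divide along that line below. The window of Epb42, which was lower in every replanted library too but had no match, is not shown. Capitals mark AGATAA or TGATAA, or their reverse complement.

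Alas2, chrX:22895200-22895449 (plus strand): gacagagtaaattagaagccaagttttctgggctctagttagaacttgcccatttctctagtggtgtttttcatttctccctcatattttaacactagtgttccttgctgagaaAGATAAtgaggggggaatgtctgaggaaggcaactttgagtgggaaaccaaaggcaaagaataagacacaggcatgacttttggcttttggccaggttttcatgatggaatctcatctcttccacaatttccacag
Klf1, chr19:40158652-40158901 (minus strand): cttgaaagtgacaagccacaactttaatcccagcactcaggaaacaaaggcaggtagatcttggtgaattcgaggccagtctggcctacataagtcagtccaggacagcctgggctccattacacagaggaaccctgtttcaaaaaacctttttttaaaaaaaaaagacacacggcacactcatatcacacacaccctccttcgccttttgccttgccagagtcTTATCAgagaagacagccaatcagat
Rhag, chr9:27594391-27594640 (minus strand): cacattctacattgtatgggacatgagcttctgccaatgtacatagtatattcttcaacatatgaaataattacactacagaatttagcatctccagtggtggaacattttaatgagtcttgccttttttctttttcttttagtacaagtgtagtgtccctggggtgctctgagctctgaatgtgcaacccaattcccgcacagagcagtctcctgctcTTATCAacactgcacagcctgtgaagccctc
Tfrc, chr11:81690319-81690568 (minus strand): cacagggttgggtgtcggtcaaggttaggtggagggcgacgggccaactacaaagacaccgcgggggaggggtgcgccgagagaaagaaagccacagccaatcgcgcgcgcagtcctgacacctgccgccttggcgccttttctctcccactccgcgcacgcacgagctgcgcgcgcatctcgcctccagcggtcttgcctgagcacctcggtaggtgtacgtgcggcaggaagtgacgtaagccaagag

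Alas2 held AGATAA starting 136 bases before the gene start. Klf1 and Rhag held TGATAA on the opposite strand, seen as TTATCA, starting 26 and 31 bases before it. Ermap held it too, 68 bases before the start, while Epb42, also lower in every replanted library, and Tfrc held neither form. AGATAA or TGATAA occurred in 4 of the 6 windows and in 16.9% of all 33469 windows of the same length. CCACACCC was in 0 of the 6 and in 2.84% of all windows. These matches describe letters only.

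Total counts were 8.55 M in NT and 5.04 to 8.81 M in the replanted libraries. Library preparation counted 1 stretch near the 3′ end of each transcript, so counts do not grow with transcript length and levels of different genes can be set side by side. Levels are given in CPM, counts scaled to the same fixed total in each library with TMM factors between libraries. Ribosomal RNA entries took 2.91% of counts in NT and 9.73% to 33.8% in the replanted libraries. Day 3 libraries differed in gland genes: a lipid gland list (Elovl3, Mogat1 and others) took 1.59% to 2.63% of counts in IR day 3 replicate 6 and DR day 3 replicates 1, 2 and 3, and at most 0.542% in the other 20 replanted libraries. A nasal gland list took 24.95% and 29.6% in IR day 3 replicates 3 and 4. Fits were also made without these 6 libraries, all of day 3 and called gland-rich below. Libraries with smaller gland shares stayed in, such as IR day 7 replicate 6 with 9.42% of nasal gland counts. The labelled tissue was checked with its own markers: Dspp, made by odontoblasts, was 1074 CPM in NT and had a median of 0.207 CPM in the replanted libraries, where some held 0. Postn, a ligament gene, was 2819 CPM in NT and ranged from 5.12 to 1179 CPM after replantation.

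Red cell genes were much lower in every replanted library than in NT. The 7 members other than Tfrc summed to 1792 CPM in NT, or 0.176% of its counts (exact binomial 95% interval 0.174% to 0.179%, counting error only). In the 24 replanted libraries they took between 0.00048% and 0.0330%, with a median of 0.00534%. All 7 were higher in NT than in each of the 24 libraries, while Tfrc was not. Over the 11481 genes with a mean of at least 1 CPM in all 25 libraries, NT included, 9.58% lay above all 24 in this way. Genes high in NT alone can reach this limit, here and in the lists below. Epb42 and Rhag did so, with means of 0.634 and 0.524 CPM over the replanted libraries. NT lay below all 24 for 0 of the 8 members and for 5.71% of genes. Each of the 7 was also more than 2-fold lower than NT in the mean of all 4 groups, which held for 2.22% of those genes. In single groups the same 7 of 8 were past 2-fold, against 5.18% of genes for IR and 6.4% for DR at day 3, and 2.91% for IR and 3.92% for DR at day 7. NT is 1 library, so no test was made. In these bulk samples, fewer red cell precursors and less RNA per precursor cannot be told apart.

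**Figure D1:**
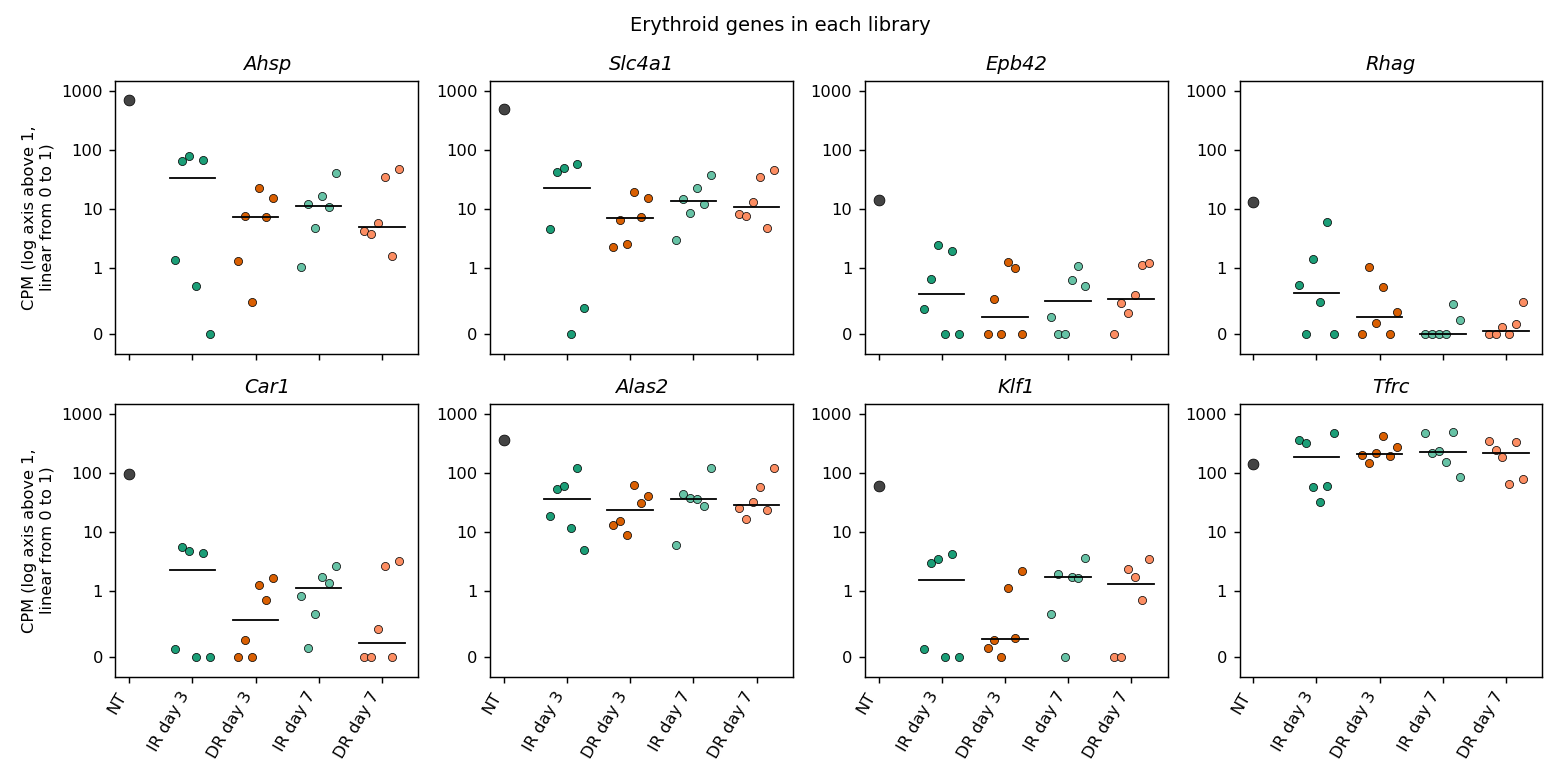
Level of each of the 8 measured genes in CPM (vertical axis, logarithmic above 1 and linear below) in NT (1 library) and in the 6 libraries of each replanted group, 1 point per library in the order of its replicate number, with a bar at the group median. For the first 7 genes the NT point lies above all 24 others, and for Tfrc it lies among them.

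Of the 2 members that serve hemoglobin, Ahsp lay much farther below NT than Alas2. Ahsp, the chaperone that holds free alpha globin, was 721 CPM in NT. Its lowest, median and highest values were 0, 33.9 and 81.2 CPM for IR day 3 and 0.495, 7.58 and 23.2 CPM for DR day 3. They were 1.06, 11.6 and 40.9 CPM for IR day 7 and 1.60, 5.06 and 49.1 CPM for DR day 7. The highest replanted library, IR day 3 replicate 3, thus reached 11.3% of NT, and the groups overlapped widely. Its 0 in IR day 3 replicate 6 allows up to 0.586 CPM, the level of 3 counts. On the log2 scale with 5 CPM added, its ratios to NT were -4.12 for IR and -5.67 for DR at day 3, and -5.22 for IR and -5.06 for DR at day 7.

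Alas2, the red cell form of the first enzyme of heme synthesis, had the highest mean relative to NT among the 7. It was 375 CPM in NT. The lowest, median and highest values were 5.12, 36.5 and 124 CPM for IR day 3 and 8.90, 23.7 and 63.9 CPM for DR day 3. They were 6.21, 37.4 and 125 CPM for IR day 7 and 17.2, 29.3 and 124 CPM for DR day 7. No library lacked it, and the highest one was at 33.4% of NT. Its log2 ratios to NT were -2.90, -3.47, -2.88 and -2.87 in the same order of groups. Over all 24 libraries its mean was 11.2% of NT, compared with 2.67% for Ahsp.

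Among membrane proteins, Slc4a1, the chloride and bicarbonate exchanger known as band 3, was 513 CPM in NT. It had lowest, median and highest values of 0, 23.5 and 57.8 CPM for IR day 3 and 2.30, 7.05 and 19.5 CPM for DR day 3. They were 3.04, 13.7 and 39.0 CPM for IR day 7 and 4.79, 10.8 and 47.0 CPM for DR day 7. The groups overlapped again, and the highest library was at 11.3% of NT. Its log2 ratios to NT were -4.06, -5.20, -4.56 and -4.40. Epb42, the band 4.2 protein that joins band 3 to the membrane skeleton, was 14.5 CPM in NT against 0 to 2.53 CPM. Rhag, which anchors the Rh proteins, was 13.4 CPM in NT against 0 to 6.20 CPM. IR day 3 replicate 5 alone gave that highest value, with 56 of the 72 Rhag counts of its group, and the next highest replanted library held 1.44 CPM. The log2 ratios to NT were -1.71, -1.83, -1.83 and -1.79 for Epb42 and -1.51, -1.78, -1.85 and -1.85 for Rhag, with the 5 CPM added to values near or under that size. At these depths both genes were near the level of a few counts, since 3 counts equal 0.314 to 0.734 CPM in the replanted libraries.

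Car1, the red cell carbonic anhydrase, was 95.9 CPM in NT and between 0 and 5.55 CPM after replantation, with a median of 0.761 CPM. Its lowest, median and highest values were 0, 2.33 and 5.55 CPM for IR day 3 and 0, 0.565 and 1.71 CPM for DR day 3. They were 0.130, 1.16 and 2.64 CPM for IR day 7 and 0, 0.214 and 3.29 CPM for DR day 7. It was at 0 in 7 of the 24 libraries, the groups overlapped, and its log2 ratios to NT were -3.75, -4.15, -4.01 and -4.05. Klf1, the factor of nucleated precursors, was 60.6 CPM in NT and between 0 and 4.32 CPM in the replanted libraries, with a median of 1.005 CPM. The lowest, median and highest values were 0, 1.58 and 4.32 CPM for IR day 3 and 0, 0.276 and 2.22 CPM for DR day 3. They were 0, 1.74 and 3.70 CPM for IR day 7 and 0, 1.32 and 3.53 CPM for DR day 7. It was at 0 in 6 libraries, 2 each in IR day 3 and DR day 7 and 1 each in DR day 3 and IR day 7. Its log2 ratios were -3.26, -3.53, -3.31 and -3.35, and adding 0.5 in place of 5 CPM moved them to between -4.70 and -5.70. The same smaller addition moved Car1 to between -5.00 and -6.34, Epb42 to between -3.36 and -3.95 and Rhag to between -2.81 and -4.51, so the ratios with 5 CPM understate the difference of these 4 low genes.

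Tfrc, the receptor that takes up iron-laden transferrin and is made by many dividing cells besides erythroblasts, was not below NT in the mean CPM of any group. In mean log2 CPM, IR day 3 was slightly below NT, at 7.10 against 7.19, and the other 3 groups were above it. It was 146 CPM in NT. The lowest, median and highest values were 32.4, 192 and 481 CPM for IR day 3 and 153, 211 and 432 CPM for DR day 3. They were 86.2, 230.2 and 499 CPM for IR day 7 and 67.2, 218 and 358 CPM for DR day 7. NT thus lay within the range of 3 groups and below all of DR day 3. Its log2 ratios to NT were 0.58, 0.75, 0.93 and 0.54. Tfrc was below NT in 6 of the 24 libraries, at 32.4 to 86.2 CPM, and these carried 4.17% to 29.6% of nasal gland counts. The other 18, at 153 to 499 CPM, carried 0.0390% to 5.59%, and the part of gland tissue in the difference was not tested.

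The remaining red cell transcripts had another make-up than those of NT. Of the 15083 counts of the 7 genes in NT, Ahsp held 40.2% (exact 95% interval 39.4% to 41.0%) and Alas2 20.9% (20.3% to 21.6%). In the replanted libraries the share of Ahsp was lower, with a lowest, median and highest value of 0%, 15.9% and 39.4%. The share of Alas2 was higher than in NT in all 24, at 29.7%, 58.8% and 92.9%. Slc4a1 held 28.6% in NT and a median of 20.8% after replantation. Klf1 went from 3.38% in NT to a median of 1.43%, and Car1 from 5.35% to 1.20%. The highest Ahsp shares, 38.5% and 39.4%, and the lowest Alas2 shares, 31.4% and 29.7%, were those of IR day 3 replicates 2 and 3. Shares of the poorest libraries rest on few counts, 28 in IR day 3 replicate 6 and 54 in IR day 3 replicate 4.

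**Figure D2:**
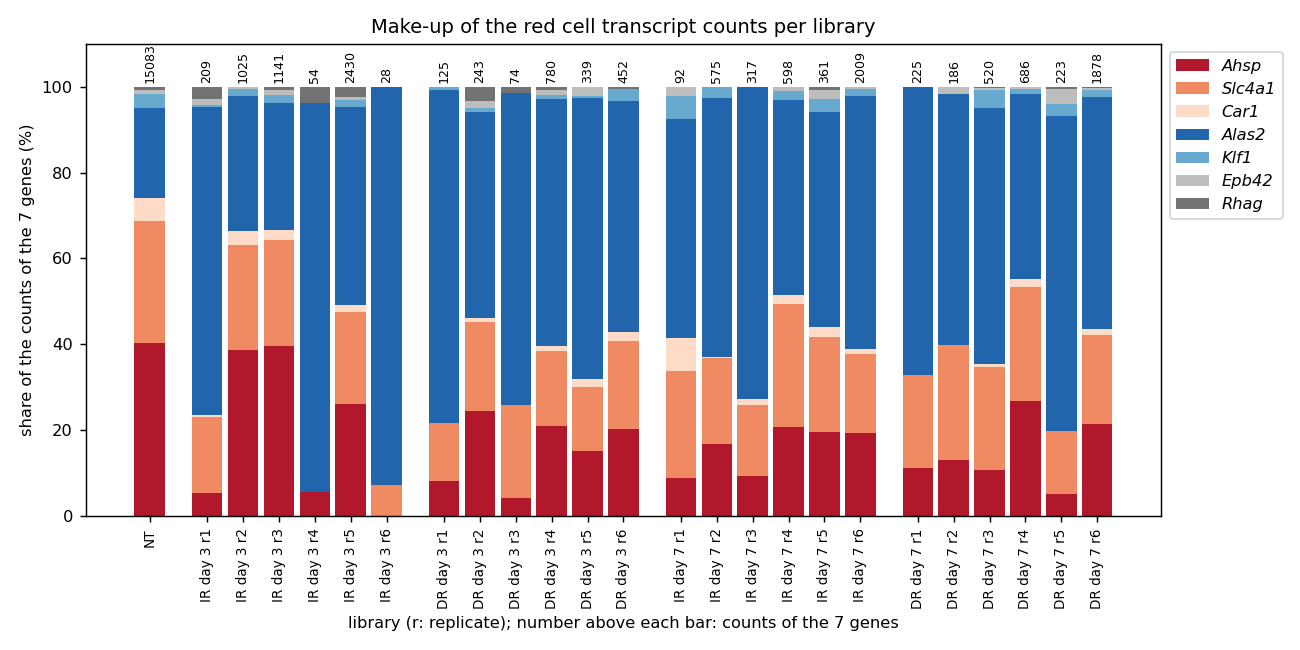
Share of each gene in the summed counts of the 7 red cell genes (vertical axis, %), 1 bar per library, with the number of counts above it. Alas2 holds 20.9% in NT and at least 29.7% in each replanted library.

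Globin transcripts lay less far below NT than Ahsp. The 4 listed globin genes with a mean of at least 1 CPM, Hba1, Hba2, Hbb and Hbb-b1, were all above every replanted library in NT. This held for 9.58% of all genes. Hbb, the adult beta globin, was 6063 CPM in NT and had a lowest, median and highest value of 143, 711 and 3111 CPM after replantation. Its log2 ratios were -2.55, -3.05, -2.49 and -2.68, smaller in size than those of Ahsp in all 4 groups. Hba1 and Hba2, the near-identical alpha globins, were counted at ratios of 1.01 to 1.09 to each other in every library, so reads may be shared between them. Listed globins gave 40.5 counts per count of the 7 red cell genes in NT, and 58.7 to 260.4 in the replanted libraries, with a median of 149.5. NT was thus below all 24 libraries in this ratio.

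Many nuclear factors and membrane genes of erythroblasts were also highest in NT. Of 11 regulators with a mean of at least 1 CPM, 8 were above all 24 libraries in NT, against 9.58% of all genes. That mean includes NT, so genes high in NT alone can enter this list and that of the membrane genes. Tal1, a partner of GATA1, was 70.7 CPM in NT against a median of 7.40. Hemgn, a nuclear protein of erythroblasts, was 70.3 against 1.48. Gata1 itself was 18.9 against 0.369, and Lmo2, which endothelium also makes, was 42.3 against 33.4, within the replanted range. Of 10 membrane and skeleton genes, 6 were above all 24, among them Rhd, an Rh protein, at 76.2 CPM against 2.42, and Kel, a blood group enzyme, at 29.6 against a median of 0. Dmtn and Tmod1, skeleton proteins found in many cells, were at 10.2 and 31.2 CPM in NT, within the replanted ranges of 0.250 to 24.6 and 10.2 to 36.1.

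**Figure D3:**
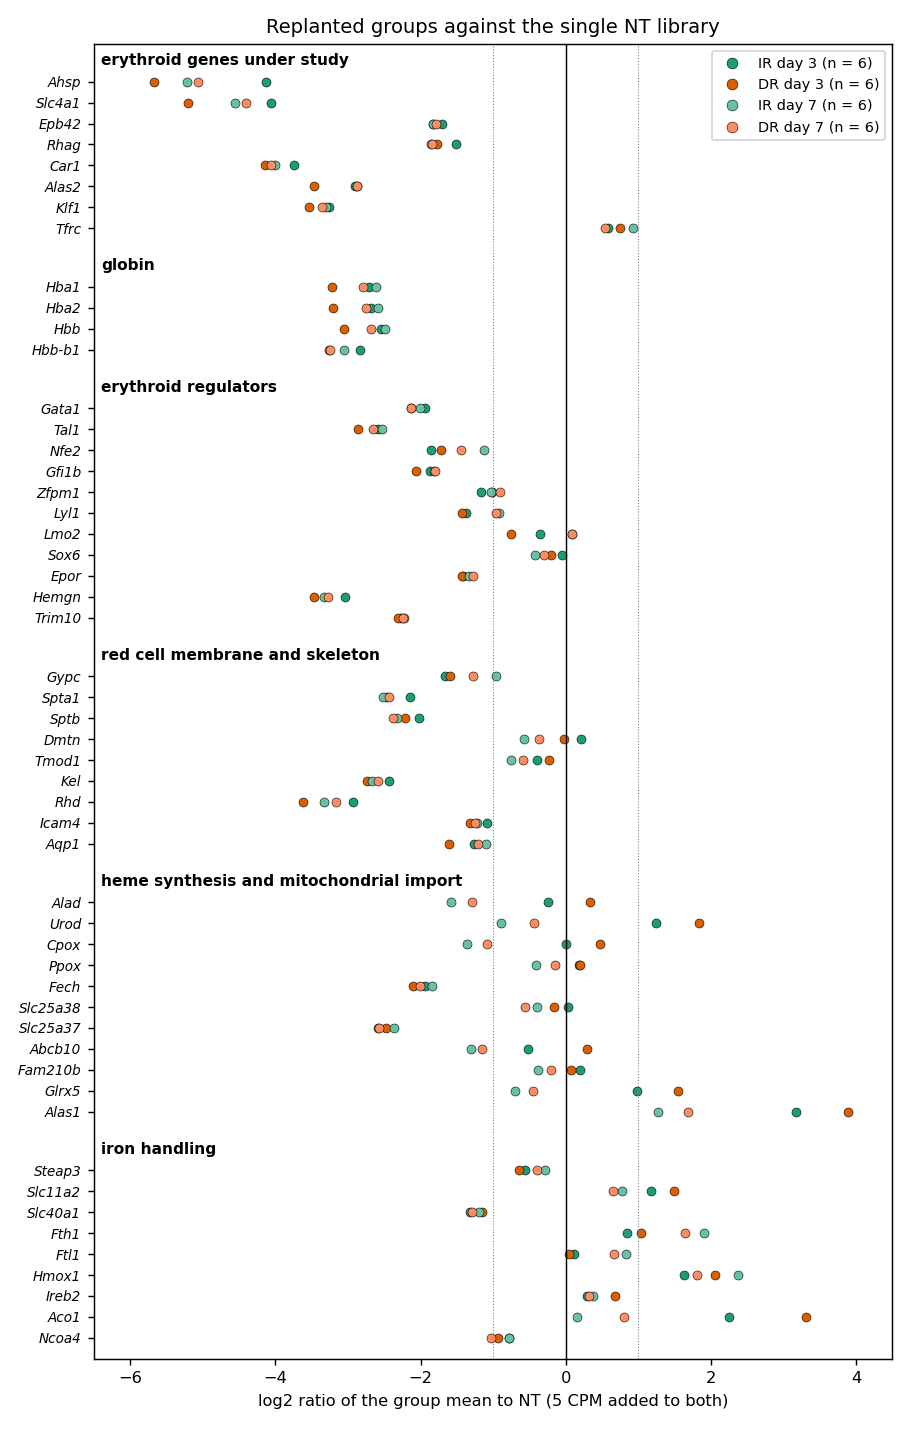
Log2 ratio of each replanted group's mean to the NT library (horizontal axis, 5 CPM added) for the measured members and for most listed genes with at least 5 CPM in NT or in the replanted median, with dotted lines at a 2-fold difference. The 7 members other than Tfrc lie left of the lower dotted line in all 4 groups, and Tfrc lies right of 0.

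Granulocyte precursor and megakaryocyte genes stood with the red cell genes, and B cell precursor genes did so only in part. Granulocyte precursor genes were above all 24 libraries in NT in 6 of 6 cases, against 9.58% of all genes. Among them were Ngp, a granule protein, at 555 CPM against a median of 4.52, and Mpo, myeloperoxidase of young granulocytes, at 172 against 2.88. The list took 0.173% of counts in NT and 0.000154% to 0.0270% after replantation. The 3 megakaryocyte and platelet genes with a mean of at least 1 CPM were also above all 24, for example Pf4 at 178 CPM against 40.4. Of 3 B cell precursor genes, Vpreb3, part of the receptor of early B cells, was above all 24, at 42.9 against 3.41 CPM, and Cd79b and Ebf1 were not. The B cell precursor list took 0.0208% of counts in NT, within the replanted range of 0.000617% to 0.0254%. NT differed in non-marrow genes too: 6 of 7 tooth and ligament genes were above all 24, and of 5 bone genes only Bglap was. The part of marrow content, tissue sampled and age in the difference between NT and the replanted groups cannot be told apart in this design.

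Among the replanted libraries the sum of the 7 genes differed 48.8-fold from the lowest to the highest. At day 3 it was 115 ± 114 CPM for IR and 49.7 ± 38.3 CPM for DR (SD, n = 6 each). At day 7 it was 81.4 ± 68.6 CPM for IR and 86.4 ± 80.0 CPM for DR (SD, n = 6 each), so the SD was of similar size to the mean in each group. The highest sums were 269 CPM in IR day 3 replicate 5, 229 in DR day 7 replicate 6, 212 in IR day 7 replicate 6 and 206 in IR day 3 replicate 3. These 4 libraries carried 6.06%, 6.74%, 9.42% and 24.95% of nasal gland counts, and were 4 of the 5 replanted libraries with the most. The other of the 5, IR day 3 replicate 4 with 29.6%, had one of the lowest sums, and the part of gland tissue was not tested. The lowest were 5.51 CPM in IR day 3 replicate 6, 12.2 each in IR day 7 replicate 1 and DR day 3 replicate 3, and 13.3 in IR day 3 replicate 4. High and low libraries thus occurred within the same group, above all in IR day 3. Without the 6 gland-rich libraries the sums were 156 ± 122 CPM in IR day 3 and 79.1 ± 31.1 in DR day 3 (SD, n = 3 each).

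The length of drying made no difference that passed the test at day 3. edgeR's quasi-likelihood test over 11492 genes, with Benjamini-Hochberg adjustment, included 6 members, since Epb42 and Rhag did not pass the filter on low counts. It called 0 of the 6 and 0% of all genes. At an unadjusted p under 0.05 the counts were 0 of 6 members and 313 genes (2.72%). The fitted log2 difference of DR to IR was -2.02 (SE 1.17) for Ahsp, -1.57 (SE 0.94) for Slc4a1, -1.91 (SE 1.22) for Car1, -0.69 (SE 0.71) for Alas2 and -1.52 (SE 1.14) for Klf1. The 95% interval for Ahsp ran from -4.45 to 0.42, so a large difference in this direction and none are both within it. Tfrc differed by 0.16 (SE 0.57, 95% interval -1.03 to 1.36). All 6 adjusted p-values lay between 0.983 and 0.990. DESeq2 and limma-voom also called 0 members, whereas limma-voom with sample quality weights gave 1.76 for Tfrc (adjusted p = 0.041). Without the 6 gland-rich libraries Ahsp differed by -1.62 (SE 1.39) and Tfrc by 0.31 (SE 0.71).

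At day 7 the estimates of the 5 red cell members lay nearer to 0 than at day 3, and that of Tfrc lay farther from 0 with the other sign. The fitted difference of DR to IR was 0.26 (SE 1.13) for Ahsp, 0.25 (SE 0.91) for Slc4a1, -0.16 (SE 1.18) for Car1, 0.05 (SE 0.70) for Alas2, -0.15 (SE 1.09) for Klf1 and -0.36 (SE 0.57) for Tfrc. edgeR called 0 of the 6 members and 0% of all genes, and 206 genes (1.79%) had an unadjusted p under 0.05, none of them a member. The 95% intervals were wide, from -2.09 to 2.61 for Ahsp and from -1.42 to 1.52 for Alas2. The change in the DR to IR difference from day 3 to day 7 was 2.28 (SE 1.61) for Ahsp, 1.81 (SE 1.31) for Slc4a1 and -0.52 (SE 0.81) for Tfrc. This difference was called for 0 members and 0% of genes by edgeR, with 346 genes (3.01%) and 0 members at an unadjusted p under 0.05.

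Between day 3 and day 7 the members did not pass the test either. In IR the fitted change from day 3 to day 7 was -1.38 (SE 1.14) for Ahsp, -0.67 (SE 0.92) for Slc4a1, -1.05 (SE 1.16) for Car1, -0.03 (SE 0.70) for Alas2, -0.24 (SE 1.08) for Klf1 and 0.30 (SE 0.57) for Tfrc. edgeR called 0 of 6 members and 16 genes in all (0.139%). In DR the values were 0.90 (SE 1.14) for Ahsp, 1.15 (SE 0.93) for Slc4a1, 0.70 (SE 1.22) for Car1, 0.72 (SE 0.71) for Alas2, 1.14 (SE 1.14) for Klf1 and -0.22 (SE 0.57) for Tfrc. Here 0 of 6 members and 1 gene in all (0.0087%) were called. At an unadjusted p under 0.05 there were 0 of the 6 members in either contrast, against 20.4% of genes in IR and 22.5% in DR. Rhag, outside the filter, changed by -3.55 (SE 1.32) in IR in the edgeR fit of 15183 genes without it. Its unadjusted p was 0.0127 and its adjusted p 0.186, and 1 library held 56 of its 72 counts in IR day 3. Limma-voom with sample quality weights gave Tfrc a change of 2.07 in IR (adjusted p = 0.00223), and DESeq2 and limma-voom called 0 members.

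**Figure D4:**
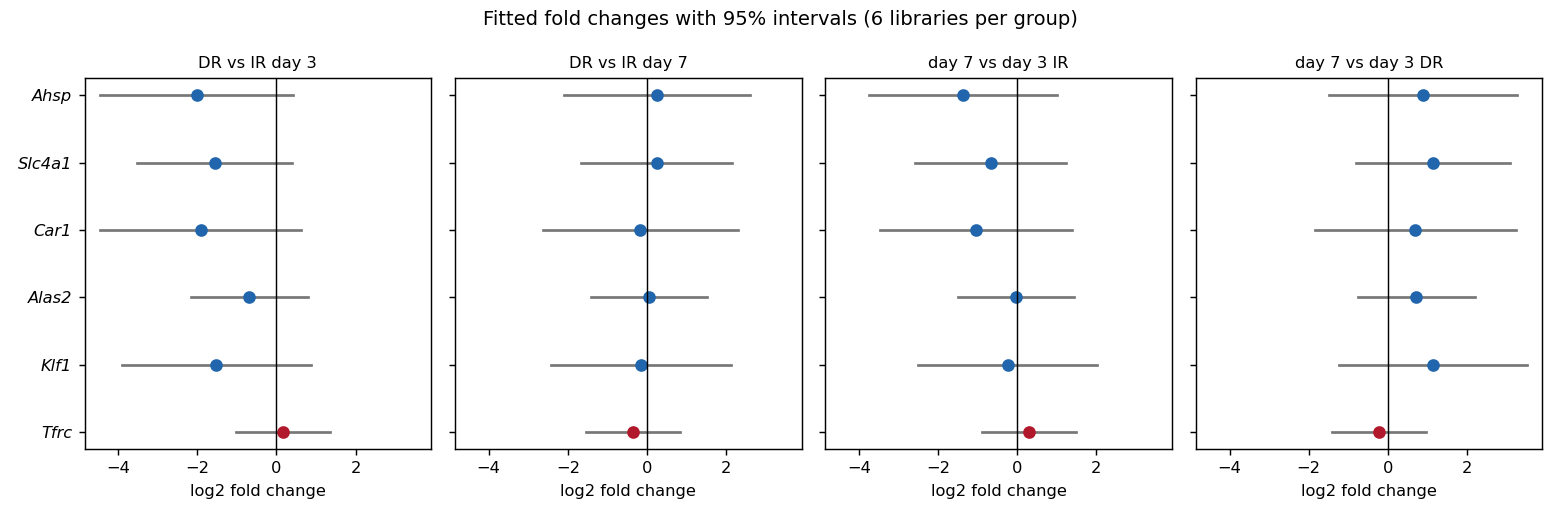
Fitted log2 fold change (horizontal axis, points) with its 95% interval (lines) for the 6 members that passed the filter, in the 4 contrasts between replanted groups, 6 libraries per group. Each interval contains 0.

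Pooled over IR and DR, day 7 differed from day 3 in 2156 genes (18.8%), and in 0 of the 6 members. The fitted change was -0.24 (SE 0.80) for Ahsp, 0.24 (SE 0.65) for Slc4a1, 0.35 (SE 0.50, 95% interval -0.70 to 1.39) for Alas2, 0.45 (SE 0.78) for Klf1 and 0.039 (SE 0.41) for Tfrc. At an unadjusted p under 0.05 the counts were 0 of the 6 members and 35.6% of genes. Tfrc was called by limma-voom with sample quality weights only, at 1.02 (adjusted p = 0.0169), while DESeq2 and limma-voom called 0 members. Without the 6 gland-rich libraries the pooled values were -0.27 for Slc4a1, -0.22 for Alas2, -0.15 for Klf1 and -0.17 for Tfrc, the other direction from the fit of all 24. Rhag, which was outside the filter, had a fitted change of -2.48 (SE 0.91) in the fit of 15183 genes without it (adjusted p = 0.0708). The library with 56 counts is among those of day 3.

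Among genes of heme synthesis, Alas2 was not called and several partners were. Of the 13 measured genes of heme synthesis and mitochondrial import, 8 were lower at day 7 than at day 3 in the pooled contrast and none higher. Of all tested genes, 18.8% were called in either direction. The list median was -1.56 against -0.06 for all tested genes. Uros and Urod, which act in the middle of the pathway, fell by 3.80 (SE 0.84) and 2.29 (SE 0.53) on the log2 scale. Alas1, the form of the first enzyme that all cells make, fell by 2.11 (SE 0.50). Fech, which inserts the iron, differed by 0.11 (SE 0.19), and Slc25a37, the iron importer of erythroblast mitochondria known as mitoferrin, by 0.09 (SE 0.26). Without the 6 gland-rich libraries 0 of the 13 and 51 genes in all were called.

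All 8 genes of heme synthesis that fell were higher in each of 4 lipid gland libraries than in any other replanted library. In the 4 libraries with 1.59% to 2.63% of lipid gland counts, Alas1 ranged from 920.2 to 1995 CPM, and in the other 20 from 76.2 to 343 CPM. Urod ranged from 641 to 1622 CPM and from 52.0 to 324 CPM in the same sets. Uros ranged from 124 to 185 CPM and from 0 to 29.4 CPM. Alas2 went the other way, at 5.12 to 15.5 CPM in the 4 and 6.21 to 125 CPM in the 20, and the sets overlapped. Fech overlapped as well, at 16.7 to 35.4 CPM and 20.3 to 55.6 CPM. In NT, Alas1 was 45.0 CPM, below all 24 replanted libraries, while Fech and Slc25a37, at 128 and 53.0 CPM, were above all of them. The part of gland tissue in the lower heme genes of day 7 was not tested. Their calls were absent without the gland-rich libraries, where 51 genes in all were called, against 2156 in the fit of all 24.

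**Figure D5:**
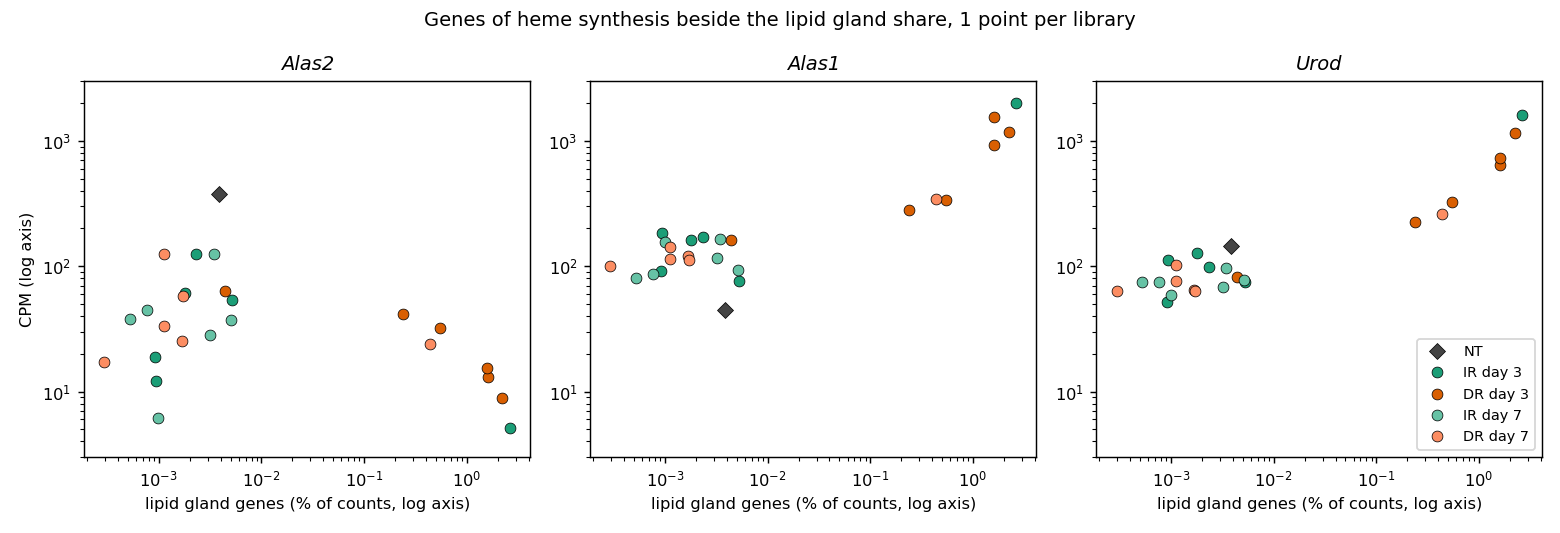
CPM (vertical axis, logarithmic) of Alas2, Alas1 and Urod against the share of lipid gland genes in the counts (horizontal axis, %, logarithmic), 1 point per library. Alas1 and Urod are highest in the 4 libraries above 1% of lipid gland counts, where Alas2 is at 5.12 to 15.5 CPM.

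Iron handling genes gave no shared pattern. In the pooled contrast 2 of 9 were lower at day 7 and none higher, beside 18.8% of all tested genes called in either direction. Aco1, the cytosolic aconitase that doubles as an iron sensor, fell by 2.51 (SE 0.56), and Slc11a2, an iron importer, by 0.79 (SE 0.25). Aco1 lost the call in 1 of 33 alternatives, the fit without the gland-rich libraries, at -0.74. Slc11a2 lost it in 13 of 33, and was at -0.092 in that same fit, which called 51 genes in all. Slc40a1, the iron exporter, was 32.9 CPM in NT and 4.92 to 17.2 CPM after replantation. Hmox1, which breaks heme down, was 69.9 CPM in NT and 34.2 to 824 CPM after replantation, with a median of 301. The regulators had 0 of 8 tested genes called in the pooled contrast, and the globins 0 of 4. Of 8 tested membrane genes only Gypc, glycophorin C, was called, at 0.88 (SE 0.31, adjusted p = 0.0489), again beside 18.8% of all tested genes. This call was lost in 22 of 33 alternatives, with adjusted p between 0.0055 and 0.475 over all of them, and at 0.48 without the gland-rich libraries.

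The 5 red cell members that passed the filter rose and fell together from library to library. Their 10 pairs had Pearson correlations of log2 CPM between 0.75 and 0.93 over the 24 replanted libraries and Spearman correlations between 0.774 and 0.967. With the group means taken out they were 0.773 to 0.942, and without the 2 farthest libraries, IR day 3 replicates 6 and 4, 0.716 to 0.973. Tfrc correlated with the 5 at -0.430 to -0.192, and at -0.627 to -0.475 without those 2 libraries. The points share library composition and depth, and the sum of the 7 followed the granulocyte precursor share (Spearman 0.806) more closely than the B cell precursor share (0.516), the total count (0.431), the nasal gland share (0.393), the megakaryocyte and platelet share (0.302) or the bone share (0.237).

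The 10 genes closest in pattern were sought among 10827 other genes by their correlation with the mean standardised level of the 5. They were Hba2 (r = 0.93), Hba1 (0.93), LOC100134871, whose gene number belongs to Hbbl1 in the RefSeq table (0.93), Ngp (0.93), Hbb-b1 (0.93), Hemgn (0.92), Hbb (0.92), LOC689064, listed as Hbb-bs (0.88), LOC287167, listed as Hba-a3 (0.86), and Camp, a granule peptide of neutrophils (0.85). Without the 2 farthest libraries these values lay between 0.80 and 0.91. Globins thus took 7 of the 10 places, granule genes of neutrophil precursors 2 and the erythroblast gene Hemgn 1.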

How the data were processed

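QuantSeq 3′ libraries were made from 500 ng of total RNA, per the labels' protocols. Each library has 1 deposited table of raw read counts by gene symbol, in whole numbers and without scaling. Bowtie2, edgeR and the builds mm10 and rn6 appear in the submitters' processing notes, with no role attached. For the counter, annotation, strand setting and versions the entry is: not given in the sources used here. For 149 repeated symbols the entry with the highest total was kept. No symbol was blank.

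Counts of the 24 replanted libraries entered 1 quasi-likelihood fit in edgeR 4.0.16 (R 4.3.3; TMM scaling, filterByExpr by group, robust, 4 group means, 20 residual degrees of freedom), which left 11492 genes. A call is a Benjamini-Hochberg adjusted p under 0.05. Levels are CPM on TMM totals over all 25 libraries, and log2 CPM used a prior count of 2. NT ratios added 5 CPM and have no test. The procedure was tested on simulated data that gave every gene the same spread beyond counting error, which the members need not share. DESeq2 1.42.0, limma 3.58.1, other scalings, no filter, left-out libraries and replicate blocks were tried. At day 7, IR and DR libraries of the same number in the sample titles deviated together (correlation of deviations 0.217 to 0.721 in 6 of 6 pairs), at day 3 in 1 of 6 pairs over 0.1. No 2 libraries were identical.

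Named genes were the 9 members, up to 4 genes of each list by mean level plus called ones, and the 10 closest in pattern. Genes named beyond these were chosen after their values were seen. The members and lists were chosen with earlier results of these data known. Of the listed genes, 1 is counted with its list and not reported here by name. Reads of near-identical or overlapping genes cannot be told apart.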

Additional observations from a re-analysis of the deposited data

How the results depend on the processing

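The 7 red cell genes were more than 2-fold lower than NT in the mean of all 4 groups under each of the 28 alternatives. The comparison of NT with each single library was not repeated under them. Most of the 28 left out 1 replanted library each, and all kept the single NT library. Between replanted groups, 1239 alternative fold changes of members gave 1169 with the same direction and side of the threshold, 67 reversed and 3 now past it. In each contrast where a replicate block could be fitted, the replicate block called 0 members. It moved Ahsp for DR against IR at day 7 to -0.044 and Klf1 over time in IR to 0.43, and with the deposited day 7 numbers Ahsp over time in DR to -0.33. It changed no call of a member. With limma-voom and sample quality weights 1 member, Tfrc, was called at day 3 between DR and IR (1.76), over time in IR (2.07) and over time pooled (1.02). The same weights reversed Fech over time pooled to -0.093, Car1 over time in DR to -0.40, Slc4a1 over time in IR to 0.10 and Ahsp for DR against IR at day 7 to -0.33. Limma-voom without weights reversed Ahsp (0.45) and Car1 (0.022) over time pooled and Car1 over time in DR (-0.10). In IR over time it reversed Ahsp (0.26), Alas2 (0.12), Car1 (0.15), Klf1 (0.53) and Slc4a1 (0.68). It also reversed Ahsp for DR against IR at day 7 (-0.20) and Car1 in the interaction (-0.25). Alas2 over time in IR was 0.018 with no low-count filter and 0.012 with ribosomal RNA left out. Without the 6 gland-rich libraries of day 3 the pooled change over time was -0.22 for Alas2, -0.15 for Klf1, -0.27 for Slc4a1 and -0.17 for Tfrc, and Car1 over time in DR was -0.15. The pooled contrast of that fit had 0 heme genes called lower and 51 genes called in all. The cause of these reversals was not tested. Leaving out 1 library at a time gave Tfrc for DR against IR at day 3 between -0.092 and 0.56. At day 7 it gave Ahsp between -0.45 and 0.92, Alas2 between -0.53 and 0.65, Car1 between -0.96 and 0.21, Klf1 between -0.65 and 0.28, and Slc4a1 between -0.23 and 0.69. Over time in DR, Car1 lay between -0.10 and 1.15 and Tfrc between -0.44 and 0.034. In IR, Alas2 lay between -0.63 and 0.59 and Klf1 between -0.66 and 0.23. Pooled, Ahsp lay between -0.59 and 0.038, Car1 between -0.58 and 0.051, Fech between -0.0038 and 0.19, and Tfrc between -0.078 and 0.24. Counts of all genes called ranged over the alternatives from 0 to 1183 for DR against IR at day 3 (0 in the fit reported), 0 to 3 at day 7 (0), 0 to 4374 over time in IR (16), 0 to 3291 in DR (1), 0 to 522 for the interaction (0) and 51 to 5466 pooled (2156). Depth limits Rhag, Epb42, Klf1 and Car1, which had 0 counts in many replanted libraries, where 3 counts equal 0.314 to 0.734 CPM.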

Other observations

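Genes of late red cell maturation, among them enzymes and clearance factors that many other cells make too, were also high in NT. Of 10 such genes with a mean of at least 1 CPM, 7 were above all 24 replanted libraries, against 9.58% of all genes. Bpgm, which makes the red cell's bisphosphoglycerate, was 152 CPM in NT and 23.2 to 72.8 CPM after replantation. Car2, a carbonic anhydrase of red cells and osteoclasts, was 268 CPM in NT and 32.6 to 199.7 CPM after replantation. Xpo7, an exporter that acts in nuclear condensation, was 157 CPM in NT and 36.7 to 84.8 CPM after replantation. Catalase (Cat) was 102 CPM in NT, within the replanted range of 29.6 to 1136 CPM. Cat fell by 2.50 (SE 0.63, edgeR adjusted p = 0.0125) from day 3 to day 7 with both drying times pooled. Without the 6 gland-rich libraries it was at -0.54 and not called, in a fit that called 51 genes in all. Bnip3l, a mitophagy receptor of maturing red cells and other cells, rose by 0.30 (SE 0.10, edgeR adjusted p = 0.0448) in the same contrast, and lost the call in 16 of 33 alternatives.

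Of 6 genes of the macrophages that surround erythroblasts in marrow islands, 0 were above all 24 replanted libraries in NT, against 9.58% of all genes. The list's median log2 ratio to NT was -0.56 and -0.35 in IR and DR at day 3, and -0.25 and -0.14 at day 7. NT was above the replanted median for 4 of the 6, for example Vcam1 at 66.5 against 30.9 CPM and Cd163 at 12.6 against 5.75 CPM, and below it for C1qa and Siglec1. C1qa, a complement gene of resident macrophages, was 45.5 CPM in NT and 8.46 to 129 CPM after replantation, with a median of 52.5 CPM. Siglec1, an adhesion receptor of these cells, was 1.43 CPM in NT and 0.504 to 13.3 CPM after replantation.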
